A study of Mus musculus with 6 samples.

Results

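The 10 genes described here encode parts of cytotoxic granules: the granzymes Gzma, Gzmb, Gzmc and Gzmk, the pore former Prf1, the granule proteins Srgn, Nkg7 and Ctsw, and the serpins Serpinb9 and Serpinb6b. They were taken by gene symbol with no filter on their values, though with earlier results of these data known. Each had 1 row among the 52856 rows of the count table. RNA was measured by RNA-seq in splenic CD4+ T cells of C57BL/6 mice aged 8 weeks. The mice either lacked miPEP31, a peptide whose reading frame lies in the miR-31 precursor transcript (genotype miPEP31-/-, labelled miPEP31 KO, 3 libraries), or were wild type (WT, 3 libraries). The cells of both groups had been activated through CD3 and CD28 for 48 hours in medium with FBS, so neither group shows resting cells. The labels give neither how the mutant mice were made nor how the CD4+ cells were isolated. They also do not say whether the libraries of a group came from separate mice, so the p-values measure only the spread between these libraries.

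Cytotoxic granules are secretory lysosomes that killer lymphocytes release onto a target cell. Perforin opens the target membrane, granzymes are serine proteases that then enter and set off cell death, and serglycin is the proteoglycan on which they are packed. Serpins in the cytosol of the killer cell trap granzymes that leak. CD8 T cells and NK cells are the best known carriers of this machinery, while CD4+ T cells, mainly helper cells, can express part of it after activation.

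Mir31 (ENSMUSG00000065408, chromosome 4, 88910557 to 88910662), the microRNA gene of the targeted locus, was at 0 counts in each of the 6 libraries, which leaves the genotype labels unchecked. Library totals lay between 22865450 and 26295735 counts in the KO group and between 23398443 and 24018635 in the WT group. Of 14387 rows with enough counts to test, 6806 passed an adjusted p of 0.05 (edgeR quasi-likelihood test, Benjamini-Hochberg adjustment). Of these, 3609 were higher and 3197 lower in the KO, and the median log2 fold change over all tested rows was 0.01. CPM below are counts per 1000000 of the library total, log2 fold changes are KO over WT with their standard error (SE), and coordinates are on GRCm38. Since these are bulk samples, fewer cells carrying a transcript and less of it per cell cannot be told apart.

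Granzymes are related copies of one another, so the stretch around the active-site serine shows how far reads of one gene can be told from those of another. The coding sequences below come from GENCODE M21 transcripts, with the codon of that serine in capitals.
Gzmb: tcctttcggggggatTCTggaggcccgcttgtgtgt
Gzmc: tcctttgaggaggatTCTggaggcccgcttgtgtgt
Gzma: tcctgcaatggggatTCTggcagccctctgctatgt
Gzmk: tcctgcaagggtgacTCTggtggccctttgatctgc
Over these 36 bases Gzmc differed from Gzmb at 3 positions, Gzma at 11 and Gzmk at 13. Over the whole coding sequence Gzmb and Gzmc were 77.9% identical, with a longest shared run of 49 bases. Gzma and Gzmk were 64.5% identical, with no shared run above 13 bases. How the authors' counting assigned reads that fit more than 1 gene is not stated in the sources used here, so the Gzmc values, low beside those of Gzmb, carry that uncertainty.

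Promoter windows, from 250 bases before to 50 bases after the start in RefSeq (GRCm38.p6), were found for 9 of the 10 genes. That start can differ from the GENCODE gene coordinates given below. The Gzmb window lies wholly upstream of the GENCODE gene, and the Serpinb9 window lies inside it. The 4 shown are those of the granzyme with the highest level, of the gene with the largest fall among the 10 and of the serpin pair whose calls went in opposite directions. Capitals mark matches, on either strand, to an interferon-stimulated response element core (GAAANNGAAA), a gamma-activated site (TTCNNNGAA), a T-box site (AGGTGTGA), a RUNX site (TGTGGT), an AP-1 site (TGANTCA) or an NF-kB site (GGGANNTTCC). No match overlapped another.
Gzmb: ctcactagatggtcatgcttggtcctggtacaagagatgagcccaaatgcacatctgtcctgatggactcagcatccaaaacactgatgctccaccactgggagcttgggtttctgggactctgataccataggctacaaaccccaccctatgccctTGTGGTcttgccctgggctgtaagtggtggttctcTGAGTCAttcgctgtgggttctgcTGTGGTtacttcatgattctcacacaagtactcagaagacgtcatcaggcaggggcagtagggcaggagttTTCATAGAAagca
Nkg7: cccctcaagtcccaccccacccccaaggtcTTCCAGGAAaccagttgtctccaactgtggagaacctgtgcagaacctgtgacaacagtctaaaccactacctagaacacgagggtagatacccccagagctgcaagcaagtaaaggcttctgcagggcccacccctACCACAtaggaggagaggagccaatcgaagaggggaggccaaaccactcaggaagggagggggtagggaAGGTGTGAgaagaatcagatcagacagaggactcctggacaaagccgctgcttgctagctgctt
Serpinb9: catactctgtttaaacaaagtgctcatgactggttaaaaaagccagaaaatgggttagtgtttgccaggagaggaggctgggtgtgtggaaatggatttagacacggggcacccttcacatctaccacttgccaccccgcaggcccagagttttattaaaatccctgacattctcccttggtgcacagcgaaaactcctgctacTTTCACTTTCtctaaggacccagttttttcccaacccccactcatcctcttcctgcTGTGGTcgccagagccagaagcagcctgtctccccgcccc
Serpinb6b: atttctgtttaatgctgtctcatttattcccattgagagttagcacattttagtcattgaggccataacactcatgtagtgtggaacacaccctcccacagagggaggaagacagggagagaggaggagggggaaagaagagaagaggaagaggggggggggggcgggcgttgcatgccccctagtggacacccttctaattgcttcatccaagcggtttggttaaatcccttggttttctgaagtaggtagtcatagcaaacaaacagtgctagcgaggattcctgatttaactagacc
Positions are counted from the RefSeq start as 0. The Gzmb window is chr14:56262285-56262584 on the minus strand and held RUNX letters at -93 and -34, AP-1 letters at -58 and gamma-activated letters at 37. The Nkg7 window is chr7:43436888-43437187 on the plus strand and held gamma-activated letters at -220, RUNX letters at -83 and T-box letters at -14. The Serpinb9 window is chr13:33004291-33004590 on the plus strand, with the interferon core at -46 and RUNX letters at 10. The Serpinb6b window is chr13:32965011-32965310 on the plus strand and held none of the 6 motifs. Among 32851 promoter windows of this length, 3.44% held the interferon core, 8.3% the gamma-activated letters and 1.28% the T-box letters. The RUNX letters were in 16.8% of them, the AP-1 letters in 7.81% and the NF-kB letters in 1.47%. A match describes the letters and does not show a bound site.

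The granule genes did not move as a block. Nkg7, Ctsw and Serpinb6b fell in the KO, Srgn and Serpinb9 rose, and the granzymes Gzma, Gzmb and Gzmc and the pore former Prf1 did not pass the test. Of the 10 genes, 9 had enough counts to test and Gzmk did not. Of these 9, 5 passed the threshold, where 47.3% of all tested rows did. By direction, 2 of the 9 were higher, where 25.1% of all tested rows were, and 3 were lower, where 22.2% were. The number higher was 0, and the number called 3, with upper-quartile scaling, with no low-count filter, without KO replicate 2 and without any 1 of the WT libraries. It was 1 with limma-voom and when 1 CPM was required in 3 libraries. In 4 of the 9 the KO and WT libraries did not overlap in CPM, a separation that 59.4% of all tested rows showed. The median log2 fold change of the 9 was 0.27. The counts lie close to those over all rows, and nothing about the genes as a group is read from them.

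**Figure D1:**
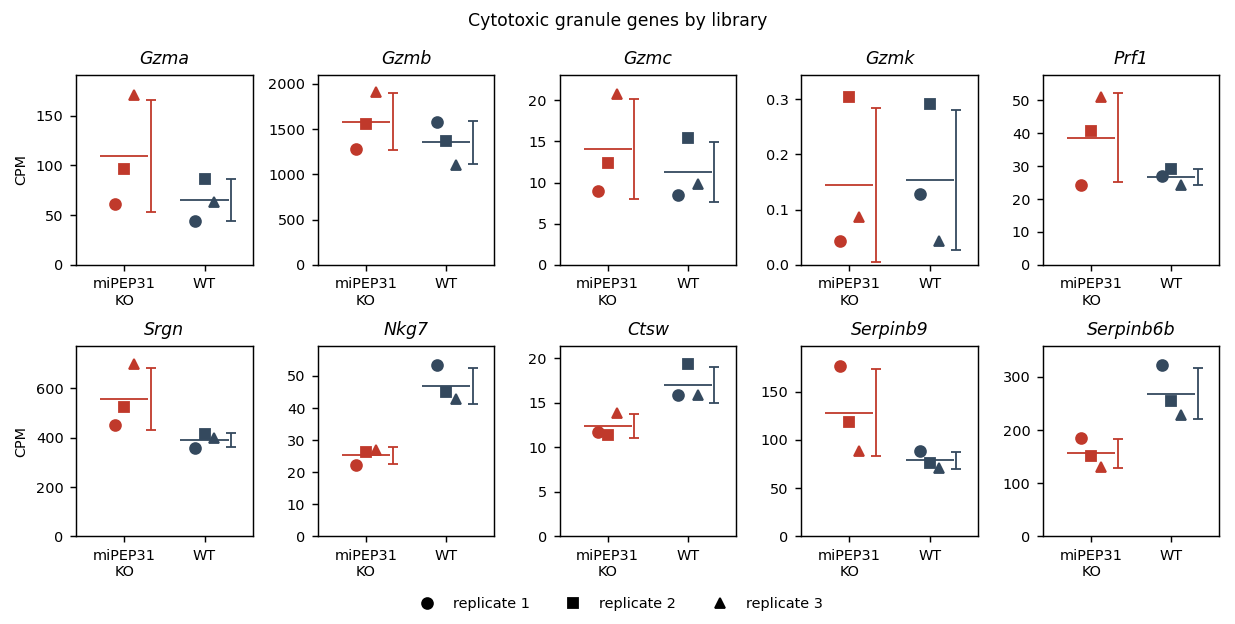
CPM of each of the 10 granule genes by library (points, shaped by replicate number), with the mean of each group (horizontal line) and its SD (error bar, n = 3), miPEP31 KO left and WT right, each panel on its own linear axis from 0. The KO libraries lie below every WT library for Nkg7, Ctsw and Serpinb6b and above every WT library for Srgn, while the groups overlap for the granzymes, Prf1 and Serpinb9.

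Gzmb, the granzyme that cleaves after aspartate and activates caspases, was abundant in both groups and did not pass the test (ENSMUSG00000015437, chromosome 14, 56258838 to 56262260, minus strand). It had 1282, 1553 and 1908 CPM in the 3 KO libraries, against 1583, 1367 and 1108 CPM in the 3 WT libraries. The groups overlapped, with KO replicate 3 highest of all and WT replicate 3 lowest. Means were 1581 ± 314 CPM in the KO and 1353 ± 238 CPM in the WT (SD, n = 3 each). The log2 fold change was 0.18 (SE 0.16, edgeR adjusted p = 0.392), and it lay between 0.01 and 0.30 over the 16 alternative settings. Gzmb alone made up 57.6% to 61.4% of the summed CPM of the 10 genes in KO libraries and 56.5% to 63.2% in WT libraries.

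Gzma, a tryptase-like granzyme that kills without caspases, had 60.7, 96.0 and 171 CPM in KO libraries, against 44.4, 86.4 and 63.3 CPM in WT libraries (ENSMUSG00000023132, chromosome 13, 113093825 to 113100981, minus strand). Only KO replicates 2 and 3 exceeded every WT library, and KO replicate 1 lay below WT replicates 2 and 3. The mean was 109 ± 56.2 CPM in the KO and 64.7 ± 21.0 CPM in the WT (SD, n = 3 each), and the log2 fold change of 0.71 (SE 0.36) did not pass the test (edgeR adjusted p = 0.143). Without KO replicate 3 it was 0.22.

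Gzmc, a mouse granzyme next to Gzmb, had 8.98, 12.4 and 20.8 CPM in KO libraries, against 8.52, 15.4 and 9.87 CPM in WT libraries (ENSMUSG00000079186, chromosome 14, 56231441 to 56234656, minus strand). The groups overlapped, and the log2 fold change of 0.27 (SE 0.32) did not pass the test (edgeR adjusted p = 0.522). It turned to -0.13 without KO replicate 3. Gzmk, another tryptase-like granzyme, was at the edge of detection, with 1, 8 and 2 counts in KO libraries and 3, 7 and 1 counts in WT libraries (ENSMUSG00000042385, chromosome 13, 113171608 to 113225908, minus strand). Its annotated span overlaps Esm1 on the other strand by 8440 bases, and the sources used here do not state whether the counting used strand.

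Prf1 encodes perforin (ENSMUSG00000037202, chromosome 10, 61297833 to 61304680, plus strand). It had 24.2, 40.6 and 51.1 CPM in KO libraries, against 26.9, 29.1 and 24.3 CPM in WT libraries. KO replicates 2 and 3 lay above every WT library and KO replicate 1 just below them all. The mean was 38.6 ± 13.5 CPM in the KO and 26.8 ± 2.40 CPM in the WT (SD, n = 3 each). The log2 fold change of 0.48 (SE 0.23) did not pass the test (edgeR adjusted p = 0.12). Without KO replicate 1 it was 0.72 and passed (adjusted p = 0.00129); over all 16 alternatives the adjusted p ran up to 0.429.

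Srgn, the serglycin core protein, rose in the KO (ENSMUSG00000020077, chromosome 10, 62493833 to 62527451, minus strand). It had 453, 524 and 697 CPM in KO libraries, against 360, 415 and 398 CPM in WT libraries, with every KO library above every WT library. KO replicate 3 stood well above the other two. The log2 fold change was 0.47 (SE 0.14, edgeR adjusted p = 0.0279). That call was lost in 6 of the 16 alternatives, without KO replicate 2 and without any 1 of the WT libraries among them, with adjusted p between 0.0557 and 0.111. It was 0.26 when KO replicate 3 was left out.

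Nkg7, a granule membrane protein needed for efficient degranulation in killer lymphocytes, showed the largest fall among the 10 genes (ENSMUSG00000004612, chromosome 7, 43437073 to 43438249, plus strand). It had 22.3, 26.4 and 27.0 CPM in KO libraries, against 53.3, 45.0 and 42.7 CPM in WT libraries. The groups were far apart, with the highest KO library below the lowest WT library by more than the whole KO range. Its level was 1.92-fold lower in the KO (-0.94 on the log2 scale, SE 0.11, edgeR adjusted p = 0.000313), and the call held in all 16 alternatives, at -1.01 to -0.84. Relative to Srgn, Nkg7 stood at 0.0494, 0.0504 and 0.0388 in KO libraries and at 0.148, 0.108 and 0.107 in WT libraries.

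Ctsw, a lysosomal cysteine protease made by cytotoxic lymphocytes, fell less (ENSMUSG00000024910, chromosome 19, 5465043 to 5468507, minus strand). It had 11.7, 11.4 and 13.9 CPM in KO libraries, against 15.8, 19.4 and 15.9 CPM in WT libraries, with no overlap. The log2 fold change was -0.51 (SE 0.12, edgeR adjusted p = 0.0107) and stayed called in all 16 alternatives, where the adjusted p reached 0.0495. Its span overlaps that of Fibp on the other strand by 9 bases.

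The serpins Serpinb9 and Serpinb6b, whose gene starts lie 38.0 kb apart on chromosome 13, moved in opposite directions. Serpinb9, the inhibitor that protects a killer cell from its own granzyme B, rose (ENSMUSG00000045827, 33003250 to 33017957, plus strand). It had 177, 119 and 88.7 CPM in KO libraries, against 88.8, 76.0 and 71.3 CPM in WT libraries. KO replicates 1 and 2 lay above every WT library and KO replicate 3 level with the highest WT library. The log2 fold change was 0.66 (SE 0.23, edgeR adjusted p = 0.042). The call was lost in 9 of the 16 alternatives, with adjusted p between 0.0563 and 0.241, and the log2 fold change without KO replicate 1 was 0.34.

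Serpinb6b, reported in the mouse as an inhibitor of granzyme A, fell (ENSMUSG00000042842, 32965209 to 32979067, plus strand). It had 186, 152 and 131 CPM in KO libraries, against 321, 255 and 228 CPM in WT libraries, and every KO library lay below every WT library. Its level was 1.77-fold lower in the KO (-0.82 on the log2 scale, SE 0.16, edgeR adjusted p = 0.00372), and it stayed called in all 16 alternatives at -0.97 to -0.67. The ratio of Serpinb9 to Serpinb6b CPM was 0.952, 0.780 and 0.676 in KO libraries, against 0.276, 0.298 and 0.313 in WT libraries. Both serpins have close copies: the coding sequence of Serpinb9 is 86.4% identical to that of Serpinb9b, and that of Serpinb6b 86.3% to that of Serpinb6a.

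**Figure D2:**
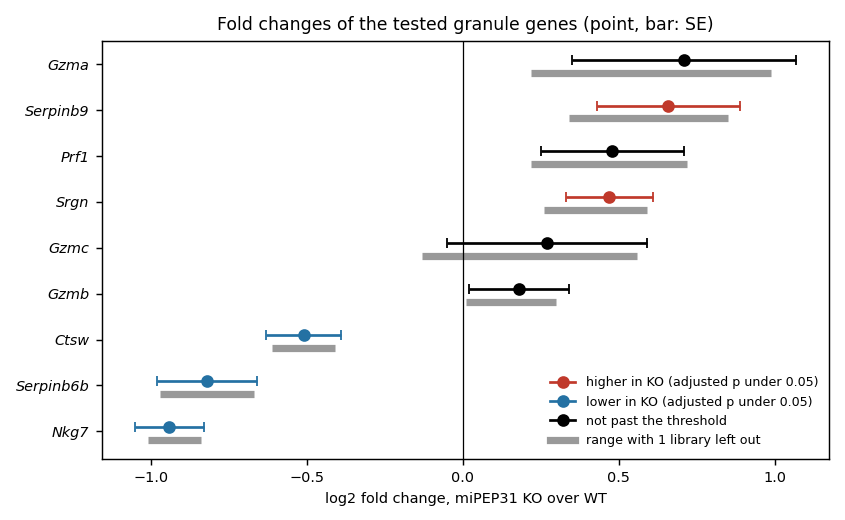
Log2 fold change of the 9 tested granule genes, miPEP31 KO over WT, as points with SE bars, coloured by direction where the adjusted p was under 0.05; grey bars give the range when each of the 6 libraries was left out in turn. Nkg7, Serpinb6b and Ctsw stay well below 0, and the grey bar of Gzmc crosses 0.

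Per kilobase of annotated exon, the order of the genes was led by Gzmb and Srgn in both groups. In the KO, Gzmb averaged 1101 CPM per kb, Srgn 254, Gzma 109, Serpinb6b 69.2, Serpinb9 36.7 and Nkg7 27.6. Gzmc, at 15.7 CPM per kb, Prf1, at 14.9, Ctsw, at 6.55, and Gzmk, at 0.104, came last. In the KO, the libraries of Gzma and Serpinb6b, of Serpinb9 and Nkg7, and of Gzmc and Prf1 overlapped, so those neighbours in the order were not separated. In the WT, Gzmb averaged 942 CPM per kb and Srgn 178, followed by Serpinb6b at 119, Gzma at 64.3, Nkg7 at 51.4 and Serpinb9 at 22.5. Gzmc, at 12.6, Prf1, at 10.4, Ctsw, at 9.03, and Gzmk, at 0.111, followed. The overlapping neighbours in the WT were Gzma and Nkg7, Gzmc and Prf1, and Prf1 and Ctsw.

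The KO libraries differed among themselves more than the WT libraries for several of the genes. Gzma, Gzmb, Gzmc, Prf1, Srgn and Nkg7 were all highest in KO replicate 3 and lowest in KO replicate 1, as were Cd8a, Cd8b1, Prdm1 and Id2. Serpinb9 and Serpinb6b were the reverse, highest in KO replicate 1 and lowest in KO replicate 3, as were Eomes, Tbx21 and Tnf. The highest KO library exceeded the lowest by 2.81-fold for Gzma, 2.11-fold for Prf1 and 2.00-fold for Serpinb9. The same spread among WT libraries was 1.95-fold for Gzma, 1.20-fold for Prf1 and 1.24-fold for Serpinb9.

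**Figure D3:**
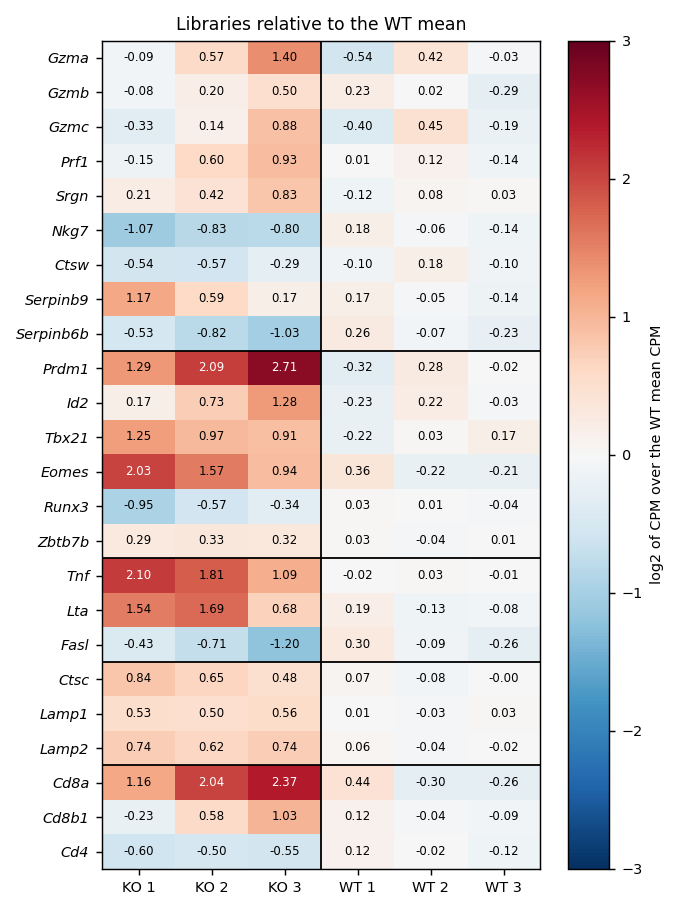
Log2 of each library's CPM over the mean WT CPM of the gene, miPEP31 KO left of WT, for the 9 tested granule genes and, between horizontal lines, regulators, death ligands, lysosomal genes, and Cd8a, Cd8b1 and Cd4. Among KO libraries, the rows of Gzma, Prf1, Prdm1, Id2 and Cd8b1 are reddest in replicate 3, and those of Serpinb9, Eomes and Tnf in replicate 1.

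Cd8a, the alpha chain of the CD8 co-receptor, served as the check for CD8 T cells, and it was higher in the KO. It had 167, 349 and 383 counts in KO libraries, against 103, 63 and 63 counts in WT libraries (log2 fold change 1.89, SE 0.33, edgeR adjusted p = 0.00232). Cd8b1, the beta chain that marks conventional CD8 T cells, had 8.72, 15.3 and 20.8 CPM in KO libraries and 11.1, 9.91 and 9.57 CPM in WT libraries, and the groups overlapped (log2 fold change 0.50, SE 0.27, adjusted p = 0.158). Cd4 fell, with 297, 318 and 306 CPM in KO libraries against 489, 443 and 414 CPM in WT libraries (log2 fold change -0.59, SE 0.07, adjusted p = 0.000403). The ratio of Cd8a to Cd4 CPM was 0.0244, 0.0418 and 0.0548 in KO libraries and 0.00897, 0.00592 and 0.00651 in WT libraries.

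Relative to Cd8a, Prf1 and Gzmb were lower in every KO library than in any WT library. The rise of Cd8a, the denominator, sets these ratios: its log2 fold change was 1.89, against 0.48 for Prf1 and 0.18 for Gzmb. Prf1 stood at 3.34, 3.06 and 3.05 times the Cd8a CPM in KO libraries, and at 6.14, 11.1 and 9.03 times in WT libraries. Gzmb stood at 177, 117 and 114 times Cd8a in KO libraries, and at 361, 521 and 411 times in WT libraries. For Gzma the ratios to Cd8a overlapped, at 8.38, 7.23 and 10.2 in KO libraries and 10.1, 33.0 and 23.5 in WT libraries. Relative to Cd8b1, Prf1 overlapped too, at 2.78, 2.65 and 2.46 times in KO libraries and 2.42, 2.94 and 2.54 times in WT libraries, as did Gzmb and Gzma. Gzmb stood at 147, 102 and 91.9 times Cd8b1 in KO libraries and at 142, 138 and 116 times in WT libraries. Without KO replicate 1, Cd8b1 and Prf1 both passed the test (adjusted p = 0.00276 for Cd8b1). The part of CD8 T cells in the granule gene values was not tested.

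**Figure D4:**
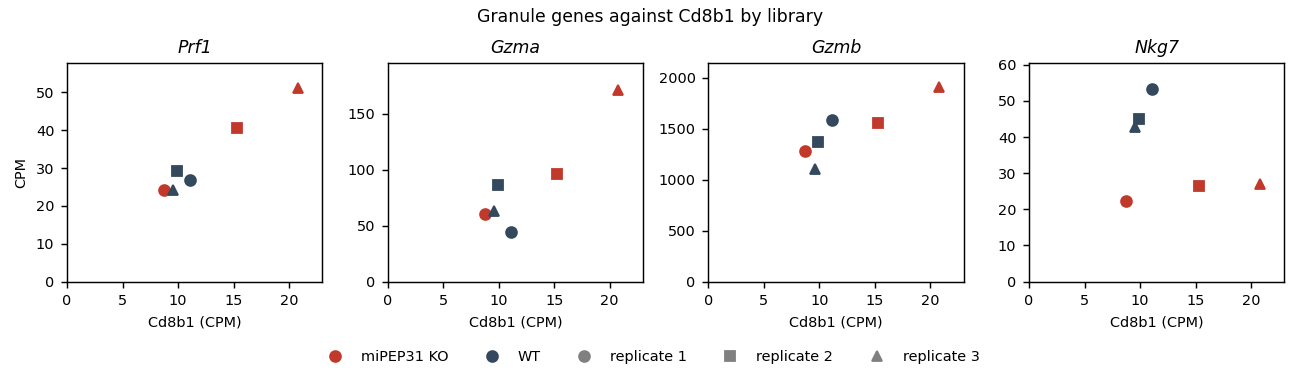
CPM of Prf1, Gzma, Gzmb and Nkg7 against CPM of Cd8b1 in each library, miPEP31 KO in red and WT in dark blue, shaped by replicate number, on linear axes from 0. Prf1 and Cd8b1 are both highest in KO replicates 3 and 2 and alike in KO replicate 1 and the WT libraries, whereas Nkg7 is lower in the 3 KO libraries than in WT libraries at any Cd8b1 level seen.

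For the shape of a gene's values over the 6 libraries, likeness was measured as the root mean square difference of log2(CPM + 0.5), centred per gene, among 10261 rows with a mean of at least 5 CPM. The named gene nearest to Prf1 was Cd8b1, at 0.0921, followed by S1pr1 at 0.0946, Sytl3 at 0.113 and Smox at 0.114. Cd8b1 and S1pr1 were almost equally near over the 6 libraries, and gene models without a proper name were left out of these nearest genes. Among the granule genes, Srgn, at 0.183, was the nearest to Prf1 and Serpinb6b, at 0.78, the farthest. Nearest to Gzmb were Btbd8 at 0.0675, Arfgap3 at 0.0748, Tbc1d32 at 0.0785 and Cdkl4 at 0.0896. The distance from Gzmb was 0.229 for Prf1 and 0.505 for Gzma.

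Of the other granzymes, Gzmd, Gzme, Gzmf, Gzmg and Gzmn lie with Gzmc and Gzmb in 1 cluster on chromosome 14, and transcripts fell off sharply away from Gzmb. Gzmd had 10, 29 and 30 counts in KO libraries, against 7, 8 and 1 counts in WT libraries (log2 fold change 2.01, SE 0.64, edgeR adjusted p = 0.0305), a call that was lost in 6 of the 15 alternatives that could test it, with adjusted p from 0.0563 to 0.0977; with at least 1 CPM required in 3 libraries it was not tested. Its coding sequence is 94.8% identical to that of Gzme, with a shared run of 96 bases, so the split of reads between the pair is uncertain. Gzme, not tested, had 12, 8 and 10 counts in KO libraries and 1, 6 and 2 counts in WT libraries. Gzmf had a log2 fold change of 0.05 (SE 0.48, adjusted p = 0.94). No library had more than 1 count for Gzmn, or more than 11 for Gzmm on chromosome 10.

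**Figure D5:**
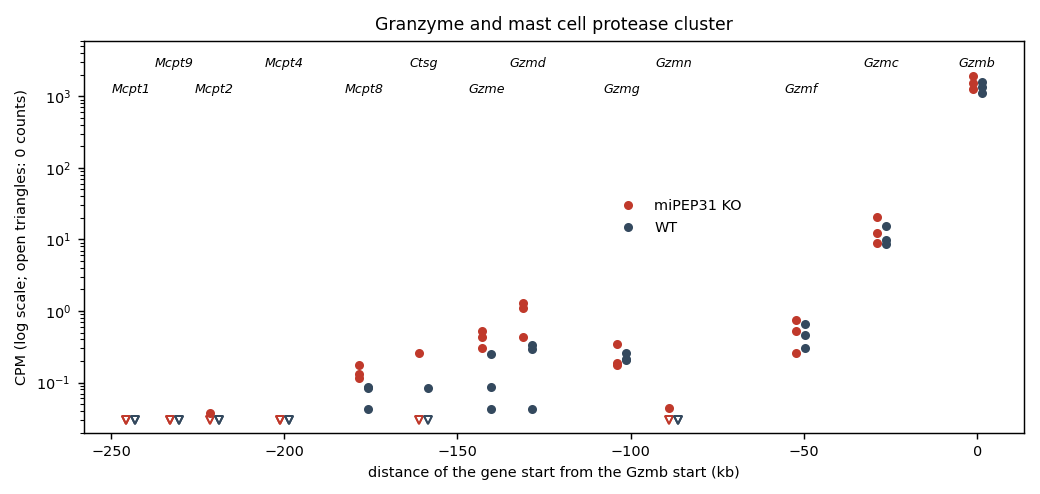
CPM (log axis) of the granzyme and mast cell protease genes of the chromosome 14 cluster against the distance of each gene start from the Gzmb start in kb, with the 3 miPEP31 KO libraries (red, shifted left) and the 3 WT libraries (dark blue, shifted right) as points and libraries at 0 counts as open triangles. Gzmb lies above 1000 CPM in every library, Gzmc between 8.52 and 20.8 CPM, and every other gene of the cluster below 1.5 CPM.

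Among genes that process and sort granule proteases, Ctsc, Lamp1, Lamp2, Calr and Ctsb rose and Lyst and Cst7 fell. Of 16 such genes, 10 rose, where 25.1% of all tested rows did, 3 fell, where 22.2% did, and the other 3 missed the threshold. Their median log2 fold change was 0.52. Ctsc, the protease that activates granzymes by removing their propeptide, had 104, 91.3 and 81.1 CPM in KO libraries, against 61.3, 55.2 and 58.2 CPM in WT libraries (log2 fold change 0.62, SE 0.10, edgeR adjusted p = 0.00155). Lamp1 and Lamp2, lysosomal membrane proteins, rose by 0.49 and 0.65 on the log2 scale, Calr, the chaperone that binds perforin, by 0.56, and Ctsb, a cathepsin, by 0.58. Lyst, the sorting protein lost in human Chediak-Higashi syndrome, fell 2.29-fold, with 36.5, 38.8 and 36.3 CPM in KO libraries against 82.2, 89.6 and 76.5 CPM in WT libraries (log2 fold change -1.20, SE 0.07). Cst7, an inhibitor of Ctsc, had 27.6, 35.3 and 53.4 CPM in KO libraries and 53.9, 62.3 and 61.5 CPM in WT libraries, with KO replicate 3 just below the lowest WT library (log2 fold change -0.66, adjusted p = 0.0304). Without WT replicate 1 the number called lower was 1 in place of 3.

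Of 19 tested genes of the exocytosis machinery, 9 rose, against 25.1% of all tested rows, 4 fell, against 22.2%, and the other 6 missed the threshold. Their median log2 fold change was 0.23. Stx11, a syntaxin needed for granule fusion, rose (log2 fold change 0.73, edgeR adjusted p = 0.000438), with 121, 127 and 150 CPM in KO libraries and 81.7, 77.2 and 73.0 CPM in WT libraries. Vti1b, a granule tethering SNARE, rose by 0.46 on the log2 scale and Syt11 by 1.07, and the calcium sensor Syt7 rose at a low level, with 1.91, 2.47 and 2.36 CPM in KO libraries against 0.213, 0.416 and 0.0427 CPM in WT libraries. Sytl1, a Rab27 effector, fell 3.05-fold, with 7.33, 10.2 and 13.8 CPM in KO libraries against 30.7, 31.4 and 30.6 CPM in WT libraries (adjusted p = 0.00037). Rab27a, the GTPase that docks granules, had a log2 fold change of -0.41 (adjusted p = 0.00576), and Unc13d, the priming factor, 0.06 (adjusted p = 0.397). Without WT replicate 1 the number called lower was 2 in place of 4.

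Among 4 death ligands, 2 rose, Tnf and Lta, where 25.1% of all tested rows did, and 1 fell, Fasl, where 22.2% did. Fasl had 14.5, 12.0 and 8.48 CPM in KO libraries, against 24.0, 18.3 and 16.3 CPM in WT libraries (log2 fold change -0.79, SE 0.21, edgeR adjusted p = 0.0168). The call was lost without KO replicate 2 and without WT replicate 1 (adjusted p = 0.0704 at most). Tnf had 152, 124 and 75.2 CPM in KO libraries, against 34.9, 36.1 and 35.3 CPM in WT libraries (log2 fold change 1.68, SE 0.22), and Lta had a log2 fold change of 1.32 (SE 0.23), a call lost with no low-count filter (adjusted p = 0.0526). Tnfsf10, which encodes TRAIL, did not pass (log2 fold change 0.03, adjusted p = 0.881).

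Among the other clade B serpins, 5 of 17 had enough counts to test, of which 2 rose and 2 fell, beside 25.1% higher and 22.2% lower over all tested rows. Serpinb6a, a close copy of Serpinb6b, rose where Serpinb6b fell, with 29.9, 29.5 and 29.1 CPM in KO libraries against 13.9, 14.9 and 11.0 CPM in WT libraries (log2 fold change 1.11, SE 0.12, edgeR adjusted p = 0.000217). Serpinb9b, a close copy of Serpinb9, had 4, 10 and 4 counts in KO libraries against 30, 54 and 39 counts in WT libraries (log2 fold change -2.83, SE 0.42). In each pair of close copies one gene rose and the other fell, and how reads that fit both copies were assigned is unknown. Serpinb2 rose and Serpinb5 fell, both below 1.5 CPM in every library.

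Of 24 tested transcription factors known to regulate cytotoxic genes, 10 rose, where 25.1% of all tested rows did, 7 fell, where 22.2% did, and the other 7 missed the threshold. Their median log2 fold change was 0.12. Prdm1, which encodes Blimp-1, had 36.5, 63.3 and 97.9 CPM in KO libraries, against 11.9, 18.1 and 14.7 CPM in WT libraries (log2 fold change 2.10, SE 0.33, edgeR adjusted p = 0.00143). The T-box factors Tbx21 and Eomes, activators of Gzmb and Prf1, rose by 1.01 and 1.54 on the log2 scale. Tbx21 had 113, 93.6 and 89.6 CPM in KO libraries against 40.9, 48.8 and 53.6 CPM in WT libraries. Runx3, the factor that sustains the CD8 cytotoxic programme, fell, with 117, 152 and 179 CPM in KO libraries against 230, 228 and 220 CPM in WT libraries (log2 fold change -0.65, SE 0.13). Zbtb7b, which encodes the CD4 lineage factor ThPOK, rose slightly (log2 fold change 0.27, SE 0.05). Tox and Hopx rose by 1.41 and 1.05 on the log2 scale, while Bach2, a repressor of effector genes, fell by 1.15 and Stat5b, which relays interleukin-2 signals, fell by 0.55.

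Of 12 tested surface genes linked to cytotoxic CD4+ T cells, 2 rose, 5 fell and the other 5 missed the threshold, while 25.1% of all tested rows were higher and 22.2% lower. Their median log2 fold change was -0.34. Slamf7 had 93.7, 123 and 153 CPM in KO libraries, against 231, 230 and 203 CPM in WT libraries (log2 fold change -0.89, SE 0.16, edgeR adjusted p = 0.00236). Lag3, an inhibitory receptor, fell by 0.82, Il18r1, a chain of the interleukin-18 receptor, by 0.94 and Cd160 by 1.80 on the log2 scale. Klrg1, a marker of late effector cells, had a log2 fold change of 2.18 (SE 0.50) at levels below 1.5 CPM. Crtam, also called higher, had 25.4, 17.0 and 10.6 CPM in KO libraries, against 11.3, 8.74 and 8.42 CPM in WT libraries. Its groups overlapped (log2 fold change 0.85, SE 0.29, edgeR adjusted p = 0.041). The number called higher was 1 or 0 in 9 of the 16 alternatives.

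Markers of CD4 T cells and of other cell types were summed per library. The exact two-sided permutation test used can give no p below 0.1 with 3 against 3 libraries. Beside the counts called in each marker list, 25.1% of all tested rows were higher and 22.2% lower. The CD4 T cell list held Cd4 and genes that other T cells carry too (Cd3d, Cd3e, Cd3g, Cd247, Trac, Trbc1 and Trbc2). All 8 were lower in the KO, and their sum was 1395 to 1418 CPM in the KO and 1739 to 1825 CPM in the WT (exact p = 0.1). The sum of Cd8a and Cd8b1 was 16.0 to 37.5 CPM in the KO and 12.3 to 15.5 CPM in the WT (exact p = 0.1), and 1 of the 2 rose. For 18 NK cell markers the sums were 46.5 to 57.9 CPM in the KO and 22.2 to 29.7 CPM in the WT (exact p = 0.1). Of the 12 NK cell markers tested, 3 rose, namely Eomes, Klrk1 and Itga2, where 25.1% of all tested rows did. Without these 3 the sums overlapped, at 11.4 to 21.2 CPM in the KO and 12.3 to 18.9 CPM in the WT. That omission was chosen after seeing the data and favours a smaller difference. Ncr1, the receptor that best defines NK cells, had 4, 3 and 7 counts in KO libraries and 3, 2 and 3 counts in WT libraries.

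For gamma-delta T and NKT cell markers, 4 of the 6 tested rose (Trdc, Tcrg-C1, Tcrg-C2 and Zbtb16, of which Trdc lost the call in 2 of the 16 alternatives and Tcrg-C1 in 5), and the sums were 43.0 to 62.6 CPM in the KO and 26.5 to 35.1 CPM in the WT (exact p = 0.1). Mast cell and basophil markers summed to 2.43 to 4.20 CPM in the KO and 3.76 to 7.24 CPM in the WT (exact p = 0.2); Kit and Hdc fell, Hdc with its call lost in 3 alternatives, and Mcpt1, Mcpt4, Tpsb2 and Tpsab1 were at 0 throughout. Neutrophil markers summed to 0.266 to 0.525 CPM in the KO and 2.77 to 4.06 CPM in the WT (exact p = 0.1), with 7 of 12, among them S100a8, S100a9 and Elane, at 0, and Ly6g and Cxcr2 lower in the KO. Macrophage markers summed to 3.51 to 6.60 CPM in the KO and 4.83 to 8.65 CPM in the WT (exact p = 0.5), with Adgre1, C1qb, C1qc and Fcgr1 at 0. Of these markers Itgam fell, a call lost in 6 of the 15 alternatives that could test it. Over these and the 2 lists below, 9 in all, the lowest adjusted p was 0.15.

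Dendritic cell markers summed to 263 to 387 CPM in the KO and 55.2 to 59.1 CPM in the WT (exact p = 0.1), most of it Bst2, which had 339, 266 and 221 CPM in KO libraries and 43.8, 39.6 and 43.5 CPM in WT libraries. Of the 5 tested, Bst2, Ccr9 and Zbtb46 rose, where 25.1% of all tested rows did, and Clec9a and Cd209a were at 0 throughout. Without the 3 called higher the sums overlapped, at 2.26 to 4.85 CPM in the KO and 1.67 to 3.08 CPM in the WT. That omission was chosen after seeing the data and favours a smaller difference. B cell markers summed to 73.4 to 148 CPM in the KO and 72.6 to 106 CPM in the WT (exact p = 0.6). Of the 8 B cell markers, Cd79a, Cd79b and Ms4a1 rose, where 25.1% of all tested rows did. The call of Cd79a was lost in 7 alternatives and that of Cd79b in 2. The part of any of these cell types in the granule gene values was not tested.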

How the data were processed

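Estimated counts per gene were deposited by the authors for 3 miPEP31 KO and 3 WT libraries of activated splenic CD4+ T cells, made with a TruSeq kit per the labels. Bowtie 0.12.2 and the build mm8 are named in the submitters' processing notes without a role; the counting program, its annotation and its use of strand are not stated in the sources used here. About 72.2% of values above 0 were whole, and the deposited counts were rounded before testing. The table's 944 rows without an Ensembl gene ID, with 0.903% to 1.56% of a library's counts, stayed in totals and tests. No column of per-sample values was left out. A deposited file of 30 genes holds none of the granule genes and was not used. Symbols and coordinates are from GENCODE M21 (GRCm38), matched by gene ID.

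Rows were kept with filterByExpr (minimum count 10) of edgeR 4.0.16 in R 4.3.3, scaled with TMM and compared with the robust quasi-likelihood test without covariates. Standard errors are the log2 fold change over the root of the F statistic. CPM use plain library totals, which differ from TMM by 0.045 in the median log2 fold change. Marker sums were compared by exact permutation in scipy 1.17.1, sequences in Biopython 1.88, and figures drawn with matplotlib 3.10.9. The alternatives were 3 scalings, 2 filters, DESeq2 1.42.0, limma-voom (limma 3.58.1), a replicate block, unrounded counts, no rows without gene IDs, and each of the 6 libraries left out, 16 in all. The test was also run on simulated counts in which far fewer rows were changed than were called here, and nothing is read from that run.

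The granule genes, the lists and the tests were chosen with earlier results of these data known. All 10 genes are named whatever their values, as are Cd4, Cd8a, Cd8b1, Zbtb7b, Runx3, Eomes, Tbx21 and Prdm1. Each other list gives up to 5 genes past the threshold by smallest p (2 where none passed), marker lists their 2 most abundant and up to 4 called, and Gzmb and Prf1 the 4 named genes of nearest pattern. Mir31, Ctsc, Cst7, Rab27a, Unc13d, Id2, Crtam, Tnfsf10, Gzme, Gzmf, Gzmm, Gzmn and Ncr1 were named after their values were seen. The replicate numbers did not pair KO with WT libraries: the correlations of same-numbered deviations from the group means were 0.001, -0.007 and -0.016.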

Additional observations from a re-analysis of the deposited data

How the results depend on the processing

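The fit across all genes was recomputed under 16 alternatives. Marker sums were recomputed with TMM library sizes, with each library left out and without the markers called higher. Ratios, replicate orders, orders of level, pattern distances and sequence matches were not recomputed. Of the 14387 rows tested, 6806 passed the threshold, and 5142 to 7233 did with 1 library left out. Among the granule genes, 5 passed. With upper-quartile scaling or no low-count filter, 3 did, and with 1 library left out, 3 to 5. The number of granule genes called higher, 2 (Srgn and Serpinb9), was 0 with upper-quartile scaling and 0 with no low-count filter. It was 1 when 1 CPM was required in 3 libraries and 1 with limma-voom, and 0 to 2 with 1 library left out. The number called lower was 3 in every leave-one-out fit. With 1 library left out, the log2 fold change of Gzmc ran from -0.13, without KO replicate 3, to 0.56. The B cell marker sum, KO minus WT, ran from -4.33 CPM, without KO replicate 3, to 32.8 CPM with 1 library left out, and turned to -5.27 CPM without the markers called higher, an alternative chosen after seeing the data, whose direction that choice of markers favours. The causes were not tested. The replicate numbers share no source in the labels and did not pair the libraries: with the replicate block, 5736 genes and 5 granule genes passed. Depth limits Gzmk and the granzymes other than Gzma, Gzmb and Gzmc.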

Other observations

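Further genes of the same lists, picked after their values were seen, passed the test (edgeR quasi-likelihood test, n = 3 each). Among the lysosomal genes, Ctsz, a cathepsin, had 164, 184 and 186 CPM in KO libraries, against 116, 101 and 112 CPM in WT libraries (log2 fold change 0.65, SE 0.08). Ctsd and Ctsl, 2 more cathepsins, had log2 fold changes of 0.54 and 0.49. The mannose 6-phosphate receptors that carry granzymes to lysosomes split, with 0.44 for M6pr and -0.38 for Igf2r. Among fusion proteins, Vamp8 had 37.4, 41.5 and 43.6 CPM in KO libraries, against 26.3, 29.6 and 24.8 CPM in WT libraries. Vamp2, another vesicle SNARE, had a log2 fold change of -0.56. Sytl2, a Rab27 effector like Sytl1, had 6.94, 9.39 and 14.5 CPM in KO libraries, against 5.07, 4.04 and 3.76 CPM in WT libraries, opposite in direction to Sytl1.

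Zfp683, which encodes Hobit, a factor of resident killer lymphocytes, had 2.13, 2.32 and 4.90 CPM in KO libraries, against 6.09, 8.62 and 7.82 CPM in WT libraries (log2 fold change -1.32, SE 0.32). Tcf7 and Id3, linked to less differentiated T cells, had log2 fold changes of -0.95 and -1.37. Bcl6, a repressor known to oppose Prdm1, had 8.11, 6.27 and 9.53 CPM in KO libraries, against 3.24, 2.21 and 2.14 CPM in WT libraries, so both genes were higher in the KO. Tnfrsf9, the costimulatory receptor 4-1BB, had 453, 586 and 699.9 CPM in KO libraries, against 870, 822 and 695 CPM in WT libraries, where KO replicate 3 overlapped the WT libraries (log2 fold change -0.50, SE 0.15).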
